A study of Drosophila melanogaster with 8 samples.

Results

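The nuclear tRNA genes of Drosophila melanogaster were examined in ChIP-seq peak lists made with an anti-FLAG antibody from fly heads. A gene was a member when its symbol in the Ensembl models on BDGP6 started with tRNA: and it lay on a chromosome arm. This gave 295 of 18277 genes on the arms, of which 290 were annotated as tRNA genes and 5 as pseudogenes. Members were 71 to 186 bp long, with a median of 73 bp. A gene with another tRNA gene within 1000 bp was called clustered and every other one isolated, which gave 105 isolated and 190 clustered genes. Chaining clustered genes together gave 71 clusters, so the 295 genes lay at 176 loci.

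In 3xFLAG-Da flies the endogenous Daughterless protein (Da) carries a 3xFLAG tag. Da is a basic helix-loop-helix E-protein that binds E-box sequences in DNA. Control flies were white*, the background in which the tagged line was made, and carried no FLAG tag, so their precipitates gave the background of the antibody. Heads came from flies 1 to 3 days old, and whole heads hold neurons together with many other cell types. Each line had 2 immunoprecipitated (IP) and 2 input libraries, and the peak lists of the 4 IP libraries were used here. The study calls the replicates biological, but the sources used here do not say that they came from separate fly cultures, so tests over them measure the spread between these libraries.

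RNA polymerase III transcribes tRNA genes, and its promoter lies inside the gene itself. The factor TFIIIC binds an A box near the 5′ end and a B box near the 3′ end of the transcribed region, and TFIIIB is then placed just upstream and brings in the polymerase. The genome holds many identical copies of most tRNA genes, some alone and some in clusters, often inside introns of protein-coding genes. A pair of short motifs were searched on the gene strand as a check of the annotation. The B box core GTTCNANNC was present in 274 of 295 genes (92.9%), against 1.04% of all consecutive 73-bp tiles of the arms. The letters TNGNNNAGT, searched for the A box core, matched in 161 genes (54.6%), against 5.78% of the tiles. Such fixed letters can miss an A box, so a gene without a match was not shown to lack one.

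The genes below are shown because they are the named loci with strong 3xFLAG-Da peaks or with none, and because identical copies of some of them differed in whether a peak lay nearby. They were read from Release 6 of the genome (RefSeq), 5′ to 3′ on the gene strand. Matches to the letters searched for the A and B boxes are in capitals. A gene without a marked A box was not shown to lack one. The serine gene is printed once for tRNA:Ser-GCT-2-1 (chr3R:10278054-10278135, minus strand, inside Nuak), which had a peak in both 3xFLAG-Da lists. Its sequence has 5 identical copies, of which 2 had a 3xFLAG-Da peak. The proline gene (chr3R:18628467-18628538, minus strand, inside qin) is also 1 of 5 identical copies, and it was the only one of them with a peak. The tyrosine gene (chr3R:8669081-8669174, minus strand) had peaks in both 3xFLAG-Da lists, whereas the cysteine gene (chr3L:3095737-3095808, plus strand, inside Cht7) and the arginine gene (chrX:14016203-14016275, plus strand) stood in clusters without any peak.
tRNA:Ser-GCT-2-1: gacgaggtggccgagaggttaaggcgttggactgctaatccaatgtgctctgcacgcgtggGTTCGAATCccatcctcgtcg
tRNA:Pro-TGG-1-5: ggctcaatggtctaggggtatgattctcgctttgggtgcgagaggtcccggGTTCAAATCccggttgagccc
tRNA:Tyr-GTA-1-8: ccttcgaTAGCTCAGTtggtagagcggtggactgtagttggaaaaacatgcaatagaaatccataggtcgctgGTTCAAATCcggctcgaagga
tRNA:Cys-GCA-1-1: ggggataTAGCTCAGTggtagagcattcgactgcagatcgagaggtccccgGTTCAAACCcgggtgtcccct
tRNA:Arg-TCG-3-1: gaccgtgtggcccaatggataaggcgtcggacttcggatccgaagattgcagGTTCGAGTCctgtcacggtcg

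Summits, the positions of highest pileup in each peak, lay beside these genes. The next windows show 50 bp to each side of the summit in 3xFLAG-Da IP replicate 1, printed on the strand of the tRNA gene, with E-boxes in capitals. They span chr3R:10278428-10278528 at tRNA:Ser-GCT-2-1, chr3R:18628667-18628767 at tRNA:Pro-TGG-1-5 and chr3R:8669428-8669528 at tRNA:Tyr-GTA-1-8. The proline and tyrosine windows each hold the E-box CAGCTG, and the serine window holds none of the 3 E-boxes searched on both strands. In 3xFLAG-Da IP replicate 2, whose windows are not printed, the summit windows at these same genes held none of these E-boxes.
tRNA:Ser-GCT-2-1 summit: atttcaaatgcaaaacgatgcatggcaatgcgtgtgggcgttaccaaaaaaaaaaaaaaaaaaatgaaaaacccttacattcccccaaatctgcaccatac
tRNA:Pro-TGG-1-5 summit: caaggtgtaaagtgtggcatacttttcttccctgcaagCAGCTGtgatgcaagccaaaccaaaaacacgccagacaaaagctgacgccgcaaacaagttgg
tRNA:Tyr-GTA-1-8 summit: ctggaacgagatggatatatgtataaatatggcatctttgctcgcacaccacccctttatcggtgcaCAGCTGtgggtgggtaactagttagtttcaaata

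A peak was counted at a tRNA gene when it overlapped the gene or had its summit within 500 bp of it. By this rule 86 and 44 of the 295 genes had a peak in 3xFLAG-Da IP replicates 1 and 2 (29.2% and 14.9%), against 5 and 7 genes in Control IP replicates 1 and 2 (1.69% and 2.37%). The mean was 65 ± 29.7 genes in 3xFLAG-Da and 6 ± 1.41 genes in Control (SD, n = 2 each), a ratio of 10.8. Each 3xFLAG-Da list thus had more such genes than each Control list, and an exact permutation of the libraries (two-sided) gave p = 0.333, which 2 against 2 libraries cannot go below. Other genes on the arms, which are mostly longer, had a peak in 49.6% and 39.6% of cases in the 3xFLAG-Da lists and in 3.11% and 4.73% in the Control lists. Tiles of 73 bp, scored by the same rule, had a peak in 9.29% and 6.97% of cases in 3xFLAG-Da, against 0.357% and 0.557% in Control.

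The share of tRNA genes was thus 3.14 and 2.14 times that of the tiles in the 3xFLAG-Da lists, and 4.75 and 4.26 times in the Control lists. The Control ratios rest on 3 and 4 peaks. Tiles were not filtered for unique sequence, so stretches where reads cannot be placed count among them. The number of peaks and the depth differed between the lines in the same direction as the tRNA counts. The lists held 10915 and 8745 peaks in 3xFLAG-Da and 453 and 707 peaks in Control, and the coverage recovered from the peak values in fragments per position was 9.36 and 4.17 for the tagged line, against 1.92 and 1.72 for Control. As a share of its list, 60 and 34 peaks at tRNA genes made up 0.550% and 0.389% in 3xFLAG-Da, against 0.662% and 0.566% from 3 and 4 peaks in Control (exact permutation test over libraries, two-sided, p = 0.333). When each list was trimmed to its 453 peaks of highest −log10 p, 0 and 0 tRNA genes had a peak in 3xFLAG-Da, against 5 and 3 in Control, so the direction of the comparison turned. This trimming kept the whole list of Control IP replicate 1 but only the most significant peaks of the longer 3xFLAG-Da lists. The parts of tag, depth and list length cannot be told apart in the counts.

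The replicates differed in how many tRNA genes they reached, and nearly all of the smaller set of 3xFLAG-Da IP replicate 2 lay within that of replicate 1. A peak was found in both 3xFLAG-Da lists at 41 genes, which was 47.7% of those in replicate 1 and 93.2% of those in replicate 2. Among genes without a Control peak, 3xFLAG-Da IP replicate 1 alone had a peak at 41 genes and replicate 2 alone at 2. In Control, 3 genes had a peak in both lists, 60% of those in replicate 1 and 42.9% of those in replicate 2. No list had a peak at 205 of the 295 genes (69.5%).

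A peak in both 3xFLAG-Da lists and in neither Control list was found at 38 tRNA genes (12.9%), which lay at 28 loci. The same pattern held for 33.2% of other genes and for 5.61% of the tiles. Control depth limits this count. At the fold of the 3xFLAG-Da peaks and the Control background, 20 of the 28 loci by the folds of replicate 1, and 17 of 28 by those of replicate 2, would have reached the lowest pileup called in both Control libraries. Requiring this of the peaks in both 3xFLAG-Da lists left 18 genes.

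Isolated and clustered genes were compared within each list. In the 3xFLAG-Da lists 27 and 13 of 105 isolated genes had a peak (25.7% and 12.4%), against 59 and 31 of 190 clustered genes (31.1% and 16.3%). The difference, isolated minus clustered, was −5.34 percentage points in replicate 1 (95% interval −15.5 to 5.65) and −3.93 in replicate 2 (−11.7 to 4.99), so it was not larger than the counting error in either list. In Control, 0 of 105 isolated genes had a peak in either list, which allows a share of up to 2.86% (3 counts of 105, the limit for a count of 0; the Wilson bound is 3.53%), against 5 and 7 of 190 clustered genes (2.63% and 3.68%). Every Control peak at a tRNA gene thus stood at a cluster. The 13 isolated genes with a peak in replicate 2 also had one in replicate 1, and none had a Control peak.

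Clustered genes share peaks, because 1 peak can be counted at several neighbours. Counted as loci, 27 and 13 of 105 single genes had a peak in the 3xFLAG-Da lists, against 31 and 20 of 71 clusters (43.7% and 28.2%). The difference was −17.9 points in replicate 1 (−31.7 to −3.73) and −15.8 points in replicate 2 (−28.2 to −3.87). A cluster also covers more sequence, with a median span of 594 bp against 73 bp for a single gene, so it has more room to hold a peak under the same rule. The intervals cover counting error only.

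**Figure D1:**
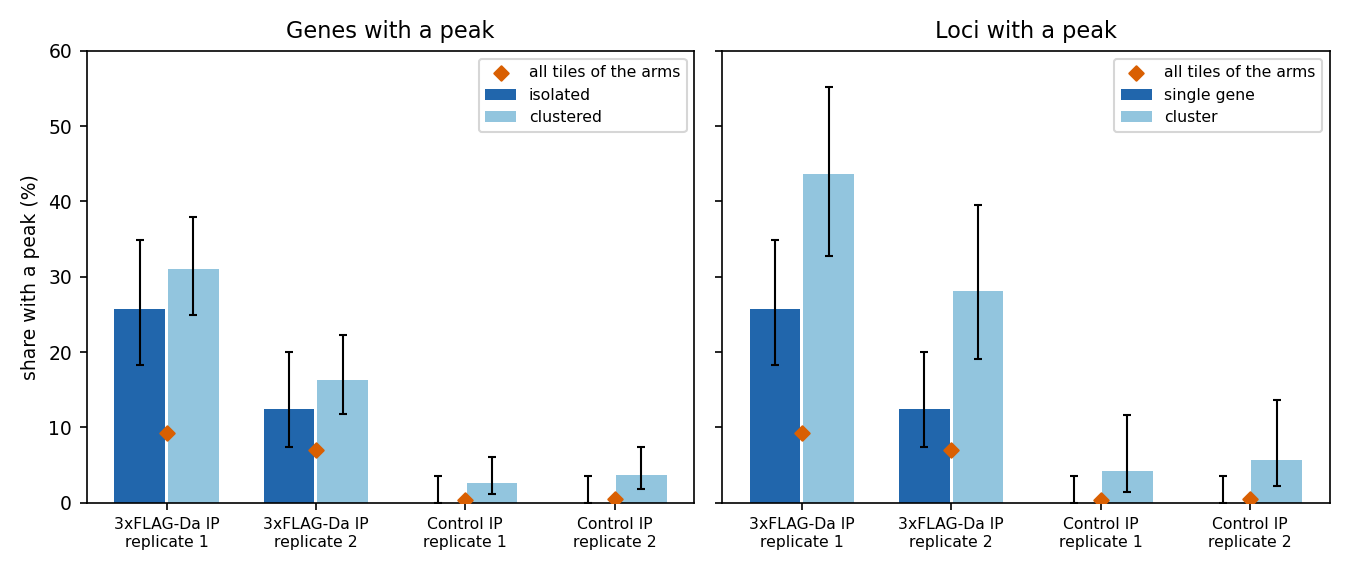
Share of isolated and clustered tRNA genes with a peak (left) and of single-gene and cluster loci (right), in percent, for each IP list, with 95% Wilson intervals; diamonds give the share of all 73-bp tiles of the arms. The isolated and clustered bars overlap in their intervals for genes, and clusters stand at 43.7% and 28.2% against 25.7% and 12.4% for single genes in the 3xFLAG-Da lists.

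Many 3xFLAG-Da peaks lie near transcription starts, so the tRNA genes were grouped by the distance to the nearest start of another gene. Within 500 bp of such a start, 23 and 14 of 46 tRNA genes had a peak in the 3xFLAG-Da lists (50% and 30.4%), and the tiles at the same distance had 36.4% and 28.3%. At 5000 bp or more, 20 and 11 of 73 tRNA genes had a peak (27.4% and 15.1%, Wilson intervals 18.5% to 38.6% and 8.63% to 25%), against 2.65% and 1.92% of the tiles. These 73 genes lay at 41 loci, of which 14 and 9 had a peak in 3xFLAG-Da IP replicates 1 and 2. The tiles were not filtered for unique sequence, whereas the median of all tRNA genes was 99.2% unique reads. What this adds to the gap was not tested. In Control, 0 of the 73 genes had a peak in either list, with 0.149% and 0.168% of the tiles, so a difference could not be seen at this number of genes. The share of tiles with a peak fell with distance from a start in both 3xFLAG-Da lists, whereas that of tRNA genes was 22.4% to 27.4% in replicate 1 and 8.77% to 15.1% in replicate 2 over all distances past 500 bp.

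**Figure D2:**
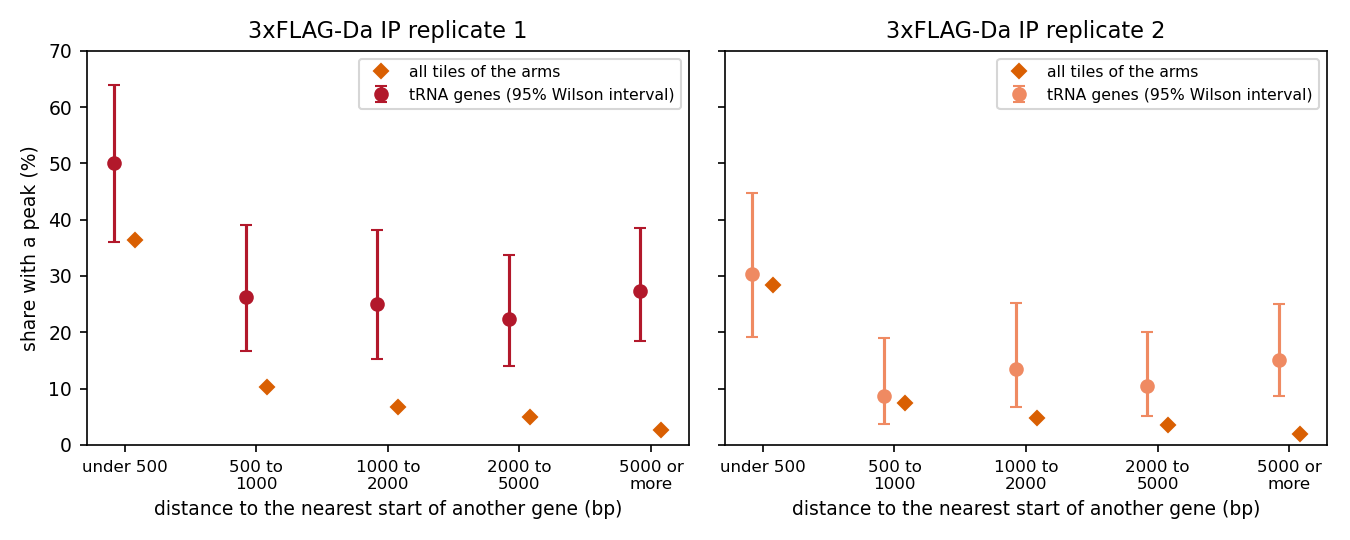
Share of tRNA genes with a peak (circles, with 95% Wilson intervals) and of 73-bp tiles (diamonds), in percent, by distance in bp to the nearest start of another gene in the 2 lists of 3xFLAG-Da. At 5000 bp or more the tRNA genes stood at 27.4% and 15.1% and the tiles, not filtered for unique sequence, at 2.65% and 1.92%.

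Genes inside protein-coding genes were also counted apart. Of the 137 such tRNA genes, 47 and 27 had a peak in 3xFLAG-Da, against 1 and 4 in Control. Of the 158 outside, 39 and 17 had a peak in 3xFLAG-Da and 4 and 3 in Control. Tiles were not counted apart inside and outside protein-coding genes, and the tRNA genes lay at 84 and 94 loci. These counts were therefore not read as a difference. Counts were also taken by chromosome arm. On arm 2R, 43 and 26 of 100 tRNA genes had a peak in 3xFLAG-Da, against 5 and 6 in Control, and on the other arms together 43 and 18 of 195 had one in 3xFLAG-Da (22.1% and 9.23%), against 0 and 1 in Control. Tiles differed little between these arms, with 9.59% and 7.26% on 2R and 9.22% and 6.91% on the other arms in the 3xFLAG-Da lists. The 100 genes of 2R lay at 54 loci, and neighbours share peaks, so no test was made of this difference.

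Peak summits lay beside the tRNA genes and rarely in them. Of 60 peaks in 3xFLAG-Da IP replicate 1, 43 overlapped a tRNA gene but 3 had their summit inside one, and in replicate 2, 19 of 34 overlapped and 0 had the summit inside. In Control, 1 of 3 and 1 of 4 overlapped and none had the summit inside. At isolated genes, whose direction is unambiguous, 20 of 27 summits in replicate 1 lay upstream of the gene (74.1%, 95% Wilson interval 55.3% to 86.8%) and 7 downstream, with a median position of −155 bp from the annotated 5′ end. In replicate 2, 10 of 13 lay upstream (76.9%, 49.7% to 91.8%) and 3 downstream, with a median of −153 bp. Among isolated genes over 1000 bp from any other start, 11 of 13 and 7 of 8 summits were upstream. At clusters, taking the nearest gene, 19 of 33 and 12 of 21 were upstream.

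Along the strand, summits at the 105 isolated genes were most frequent just before the 5′ end. In replicate 1, 10 summits lay in the last 250 bp before it and 9 in the 250 bp before that, against 3 in the first 250 bp after it, and the average of the list over the genome was 2.15. In replicate 2, 7 summits lay in the last 250 bp before the 5′ end and 2 in the first 250 bp after it, with a genome average of 1.73. The Control lists had 0 summits within 500 bp of the 5′ end of any isolated gene, but their genome averages were 0.0877 and 0.136 per 250 bp, so nothing can be read from this.

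**Figure D3:**
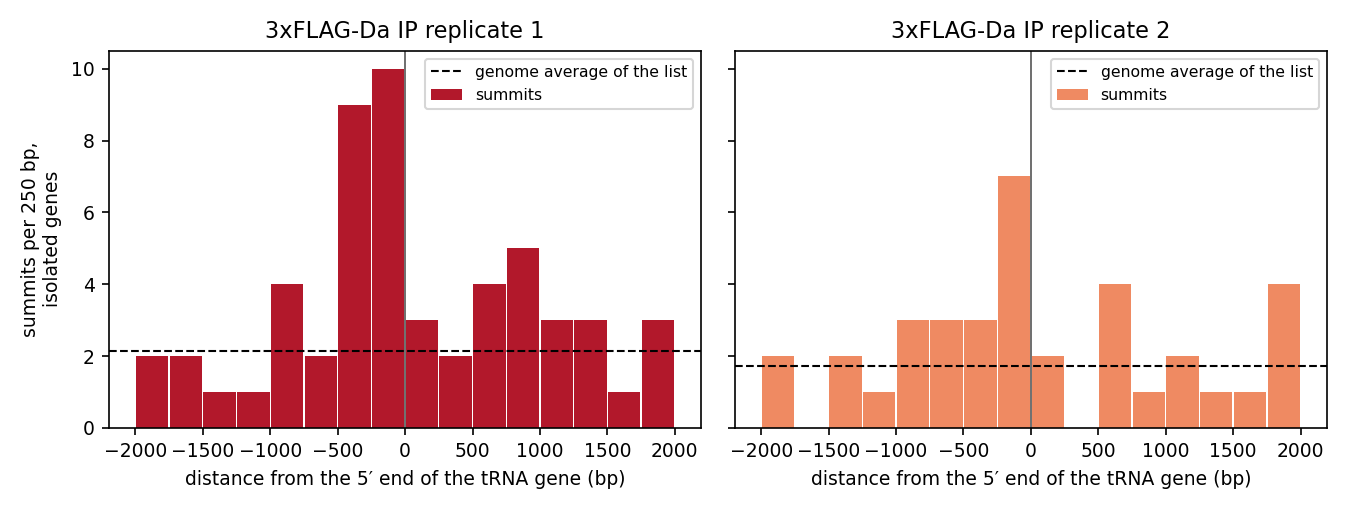
Number of peak summits per 250 bp around the 105 isolated tRNA genes, by distance in bp from the annotated 5′ end along the gene strand (negative is upstream), in the 2 lists of 3xFLAG-Da; the dashed line is the average of the list over the genome. The tallest bar lies at −250 to 0 bp in each list, with 10 and 7 summits.

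The highest-ranked tRNA peak stood at the 95.1 and 91.2 percentile of fold in 3xFLAG-Da IP replicates 1 and 2. That of replicate 1 lay at tRNA:Trp-CCA-2-6, which had folds of 13.3 and 20.5 in Control. That of replicate 2 lay at tRNA:Gln-CTG-2-3, which had a fold of 3.90 in Control IP replicate 2. The fold, the pileup at the summit over the local background with 1 added to both, had a median of 4.0 and 5.31 at tRNA genes in 3xFLAG-Da IP replicates 1 and 2, with 3.90 and 4.75 over the whole lists. In Control it was 5.39 and 5.04 at tRNA genes, with 5.92 and 5.51 over the whole lists. Ranked within its own list, the median tRNA peak stood at the 52.2 and 58.8 percentile in 3xFLAG-Da, against 37.3 and 36.7 in Control (exact permutation test over libraries, two-sided, p = 0.333). The order of the groups turned when peaks were kept only at a −log10 q of 5 or more, where 2 peaks were left in each Control list. In 3xFLAG-Da, 5 of 60 and 2 of 34 tRNA peaks were among the highest 10% of folds, against 0 of 3 and 1 of 4 in Control.

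**Figure D4:**
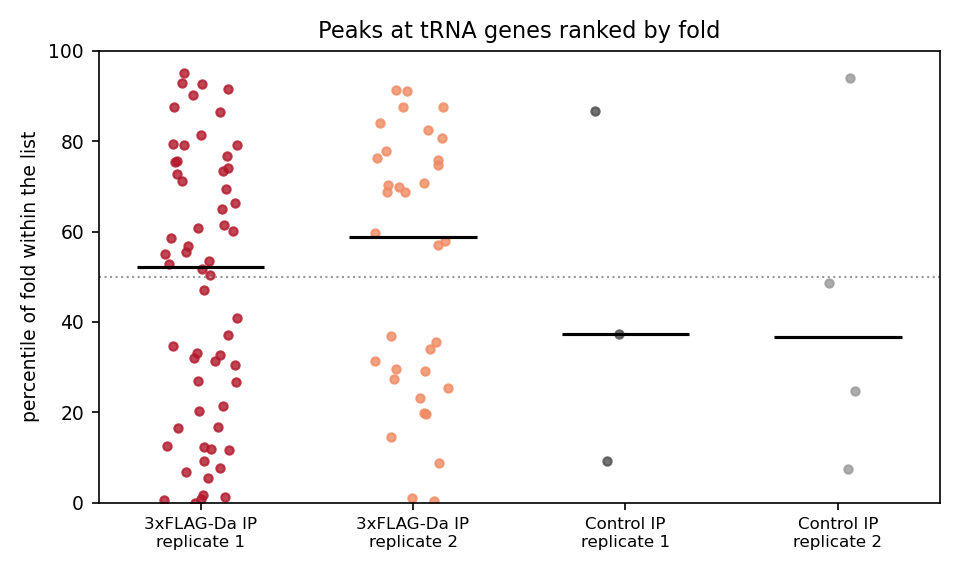
Percentile of the fold of each peak at a tRNA gene within its own list (100 is the highest), for the 4 IP lists; each point is 1 peak, bars are medians and the dotted line is the middle of a list. The points of the 3xFLAG-Da lists reach up to 95.1 and 91.2, with medians of 52.2 and 58.8, and the Control medians of 37.3 and 36.7 rest on 3 and 4 peaks.

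The E-box CAGCTG and the related forms with GG (CAGGTG) or GA in the middle (CAGATG) were searched on both strands within 50 bp of the summit. They were chosen because Da peaks of these libraries were already known to hold them. One or more was present at 14 of 60 tRNA peaks in 3xFLAG-Da IP replicate 1 (23.3%, 14.4% to 35.4%) and at 5 of 34 in replicate 2 (14.7%, 6.45% to 30.1%). Other peaks on the arms held one in 22.5% and 25.9% of cases. The tRNA peaks thus did not differ from the rest of the lists beyond counting error. In Control, 0 of 3 and 0 of 4 tRNA peaks held one, with 9.28% and 11.4% of the other peaks. Inside the tRNA genes, CAGCTG was in 0 of 295 genes (3.05% of tiles), CAGGTG in 8 (2.71% of genes and 2.87% of tiles) and CAGATG in 19 (6.44% of genes and 3.27% of tiles). Of the 28 loci with both 3xFLAG-Da peaks and no Control peak, 3 held an E-box at the summit in both lists.

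The isolated genes named here were chosen among those with a peak in both 3xFLAG-Da lists and in no Control list. The first, tRNA:Ser-GCT-2-1, a serine tRNA gene inside the kinase gene Nuak, lay 6455 bp from the nearest start of another gene. Its folds were 8.52 and 6.85 in the 3xFLAG-Da lists, and its summits lay 343 and 318 bp upstream. The proline gene tRNA:Pro-TGG-1-5, inside qin, lay 7140 bp from another start. Its folds were 7.27 and 9.12, the summits lay 179 and 135 bp upstream, and the CAGCTG printed above was within 50 bp of the summit of replicate 1 but not of that of replicate 2. The glutamate gene tRNA:Glu-TTC-1-3 (chr2R:19564873-19564944), inside sm and 1223 bp from its start, had folds of 6.10 and 7.04 and summits 155 and 153 bp upstream, with CAGCTG within 50 bp of both. Farther from starts stood tRNA:Leu-TAA-1-1 in bon (folds 5.49 and 6.29), 11610 bp from another start, whose summits lay downstream, and tRNA:Asp-GTC-1-6 in Sema1a (folds 4.19 and 3.47), 25539 bp from another start. Over the 13 isolated genes with both peaks, 10 had their summits upstream in each list.

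Among clusters, tRNA:Tyr-GTA-1-6 to tRNA:Tyr-GTA-1-8 (chr3R:8668116-8669174) hold 3 tyrosine tRNA genes within CG8036 and p. The strongest folds there were 8.11 and 8.37 in 3xFLAG-Da, at summits 304 and 367 bp upstream of tRNA:Tyr-GTA-1-8 and 140 and 77 bp from the start of CG8036, so the peak cannot be assigned to one of them. A second peak of fold 2.51 lay between the other copies in replicate 1. The 4 serine genes from tRNA:Ser-GCT-2-3 (chr3R:22396528-22397653) had 1 peak in each 3xFLAG-Da list, of fold 5.68 and 8.06, between tRNA:Ser-GCT-1-1 and tRNA:Ser-GCT-2-5. These genes point away from each other, and the summits lay 185 and 196 bp upstream of tRNA:Ser-GCT-1-1 and 126 and 115 bp upstream of tRNA:Ser-GCT-2-5. The cluster of tRNA:Ala-TGC-1-1 and tRNA:Ala-TGC-2-1 (chr2R:17391774-17392286) had folds of 7.81 and 9.11, with summits downstream of tRNA:Ala-TGC-2-1. At tRNA:Trp-CCA-2-2 and tRNA:Gly-GCC-1-9 (chr2R:18639557-18639796) the folds were 5.30 and 10.2, with summits 25 and 14 bp from the start of CG30122. These 4 clusters were chosen among loci without a Control peak.

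Control peaks reached 5 of the 176 loci, all of them clusters, and a 3xFLAG-Da peak was found at each. At tRNA:Trp-CCA-2-6 and tRNA:Gly-GCC-1-13 (chr2R:21182678-21182926), folds were 9.30 and 7.0 in 3xFLAG-Da and 13.3 and 20.5 in Control. The summits of that locus lay 166 and 16 bp from the start of tud in 3xFLAG-Da and 145 and 115 bp from it in Control. At tRNA:Asn-GTT-1-1 (chr2R:6152603-6153579, a cluster of 3 inside EcR, the ecdysone receptor gene), 3xFLAG-Da IP replicate 1 had no peak and replicate 2 had a fold of 3.02, against 4.18 and 5.45 in Control. The tRNA:Gln-CTG-2-2 cluster had folds of 8.50 and 10.3 in 3xFLAG-Da, against none and 3.90 in Control. The tRNA:Glu-TTC-1-1 cluster inside mrj had a fold of 6.12 in replicate 1 alone of 3xFLAG-Da, against 4.62 in replicate 2 alone of Control. The tRNA:His-GTG-1-1 cluster had 4.26 and 3.65 in 3xFLAG-Da, against 5.39 in Control IP replicate 1 alone, and its gene tRNA:His-GTG-1-2 was the only tRNA gene counted with a Control peak and no 3xFLAG-Da peak.

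Of 10 clusters with 4 or more genes, 3 had a peak in each 3xFLAG-Da list, none in a Control list, and 7 had none in any, where over all clusters 38 of 71 (53.5%) had none. In 1 of the 7, the 4 glutamate genes from tRNA:Glu-CTC-3-4, the median gene had 31.2% of reads that occur once in the genome, so a peak there could be missed. The 7 genes from tRNA:Arg-TCG-2-1 on X (chrX:14014814-14017284), the 6 from tRNA:Cys-GCA-1-1 (chr3L:3095737-3097590) and the 6 from tRNA:Asn-GTT-1-10 (chr3R:8139533-8141042) were without a peak in all 4 lists. The 7 isoleucine and leucine genes from tRNA:Ile-AAT-1-3 (chr2R:13430282-13432794, inside ATP8A) had peaks at 3 and 4 genes in 3xFLAG-Da and at 0 in Control. The strongest folds there were 2.83 and 7.29, with summits 104 and 40 bp from the start of ATP8A.

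Repeated sequence could hide peaks, because the authors kept only reads of mapping quality 20 or more. Of the 75-base reads within 200 bp of a tRNA gene, the median gene had 99.2% that occur once in the genome. At least 90% were unique at 281 genes, and under 50% at 5, all clustered and without a 3xFLAG-Da peak. Restricting the count to the 281 genes left 85 and 44 genes with a peak in 3xFLAG-Da and 5 and 7 in Control. Among the clusters without a peak named above, the median gene had 95.5% unique reads in the arginine cluster (lowest 77.2%), 98.6% in the cysteine cluster (lowest 97.0%) and 98.9% in the asparagine cluster (lowest 98.2%).

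Identical copies of a tRNA gene often differed in whether a peak lay nearby. Over all 295 genes, 89 (30.2%) had a peak in either 3xFLAG-Da list. At that share many sets of copies would be mixed anyway, and the counts below were not tested against it. The 295 genes had 100 different sequences, of which 43 occurred more than once and covered 238 genes. A 3xFLAG-Da peak was found at some but not all copies of 31 of these 43 sequences, at none for 10 and at all for 2. The glycine sequence of tRNA:Gly-GCC-1-1, with 13 copies, had 2 copies with a peak in each 3xFLAG-Da list and 1 in each Control list. The lysine sequence of tRNA:Lys-CTT-1-1, also with 13 copies, had 1 in each 3xFLAG-Da list and 0 in Control. The glutamate sequence of tRNA:Glu-TTC-1-1 had a peak at 6 of 6 copies in 3xFLAG-Da IP replicate 1 and at 2 in replicate 2, against 0 and 2 in Control.

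Counted by amino acid, every class but the single selenocysteine gene had a 3xFLAG-Da peak in each list. Over all 295 tRNA genes the shares were 29.2% and 14.9% in 3xFLAG-Da, and those of the tiles 9.29% and 6.97%. The classes given next are a selection. Initiator methionine tRNA genes had 4 and 2 of 6 and isoleucine tRNA genes 5 and 4 of 12 in the 3xFLAG-Da lists, against 0 in Control. Tyrosine tRNA genes had 6 and 2 of 10 and serine tRNA genes 7 and 5 of 20 in 3xFLAG-Da, with 0 in Control. Lysine tRNA genes had 2 and 1 of 19 and glutamine tRNA genes 1 and 1 of 12 in 3xFLAG-Da, against 0 and 0 for lysine and 0 and 1 for glutamine in Control. These groups are small and their copies share clusters, so they were not tested.

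Other small RNA genes were set beside the tRNA genes. A group of 10 RNA genes was listed by symbol: U6, 7SK and 7SL RNA and the RNAs of RNase P and RNase MRP. Which polymerase reads each of them was not examined here. Of these 10, 5 and 4 had a peak in 3xFLAG-Da (50% and 40%), against 0 and 1 in Control. All genes on the arms other than tRNA genes had 49.6% and 39.6% in 3xFLAG-Da, so these counts were near that share. The RNase P RNA gene had a peak in 3xFLAG-Da IP replicate 1 alone, of fold 2.44. The U6 genes snRNA:U6:96Ab and snRNA:U6:96Ac shared 1 peak, of fold 3.48 and 4.25 in the 3xFLAG-Da lists. At snRNA:7SKa, the 7SK RNA gene, folds were 6.80 and 9.13 in 3xFLAG-Da, against none and 6.61 in Control. The 96 genes of 5S rRNA had no peak in any list, but 95 of them had under 50% unique reads and their median was 0%, so peaks there could be missed. The U1, U2, U4 and U5 snRNA genes, read by RNA polymerase II, had a peak at 4 and 1 of 21 in 3xFLAG-Da and at 0 in Control. Of 257 snoRNA genes, 30 and 24 had a peak in 3xFLAG-Da (11.7% and 9.34%), against 3 and 4 in Control. Of 260 miRNA genes, 37 and 36 had one (14.2% and 13.8%), against 4 and 4 in Control. The 73-bp tiles had a peak in 9.29% and 6.97% of cases in 3xFLAG-Da and in 0.357% and 0.557% in Control. The snoRNA and miRNA genes had median lengths of 134 and 92 bp, so the tiles were not matched to them in length.

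Protein-coding genes of the RNA polymerase III machinery were listed as well. Of 15 such genes, 14 and 9 had a peak in 3xFLAG-Da, against 0 and 1 in Control. All other genes on the arms, short RNA genes included, had the 49.6% and 39.6% given above, so they are not a matched group. Brf, a subunit of TFIIIB, had its highest folds of 8.27 and 11.6 in the 3xFLAG-Da lists and no Control peak. Maf1, the repressor of RNA polymerase III, had a fold of 5.64 in 3xFLAG-Da IP replicate 1 alone, against 4.10 in Control IP replicate 2 alone.

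The limit of 500 bp fell within a run of summits and not at a gap. The farthest summit counted without overlap lay 497 and 496 bp away in the 3xFLAG-Da lists and 484 and 458 bp in the Control lists. The nearest one left out lay 506 and 518 bp away in 3xFLAG-Da and 664 and 519 bp in Control. In the last 100 bp inside the limit there were 11 and 8 genes in 3xFLAG-Da and 2 and 1 in Control, and in the 100 bp past it 9 and 5 in 3xFLAG-Da and 0 and 1 in Control.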

How the data were processed

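Per the study's methods, the authors trimmed single-end reads of 75 bases, mapped them with Bowtie2 (2.5.1) to BDGP6, kept reads of mapping quality 20 or more without duplicates with SAMtools (1.12), and called peaks with MACS2 (2.2.7.1, q 0.05), 1 list per IP library with the matching input as background. The deposited lists give per peak the authors' fold enrichment (a ratio), −log10 p and −log10 q, and a score, which was not used. Input libraries were not analysed apart from this. The study went on to score peak enrichment over white* with DiffBind, a step that was not repeated here. The lists used here are therefore not its final set of Da regions.

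Gene models were those of Ensembl on BDGP6, and sequence was Release 6. Coverage was recovered from the fold and −log10 p of the peaks under the MACS2 formula. A whole-number pileup gave back the listed −log10 p to within 0.005 for 100% of the peaks checked. The lowest pileup called was 19 and 12 in 3xFLAG-Da and 9 and 10 in Control. Libraries were compared by exact permutation, and shares have 95% Wilson or Newcombe intervals, for counting error only. Code (Python 3.11.15, pandas 2.3.3, SciPy 1.17.1) was tested on simulated data. Members, lists and E-boxes were chosen with earlier results of these data known. Loci were named by rule: the highest mean fold ranks among those with peaks in both 3xFLAG-Da lists and no Control peak, those with peaks in both Control lists, the largest clusters and the isolated genes of highest rank with an E-box. Others, and the comparison of identical copies, were chosen after their values were seen.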

Additional observations from a re-analysis of the deposited data

How the results depend on the processing

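The higher number of tRNA genes with a peak in 3xFLAG-Da than in Control kept its direction under all alternatives run except 1, and its exact permutation p was 0.333 to 0.667. The exception trimmed each list to the length of the shortest, which gave a difference of −4 genes. The share of the list at tRNA genes (−0.145 points, 3xFLAG-Da minus Control) turned to 0.125 with summits within 100 bp or with overlap alone, and to 0.00714 at a −log10 q of 5 or more, where the fold rank difference turned to −0.43 percentile points. The 38 genes with peaks in both 3xFLAG-Da lists and no Control peak became 21 with summits within 100 bp, 61 within 1000 bp, 20 with overlap alone, 23 of those over 1000 bp from another start, 18 where the peaks had to reach the Control pileup, and 0 in the trimmed lists. The isolated minus clustered difference moved to −17.9 and −15.8 points for loci, and to 2.66 points in replicate 2 with clustering within 5000 bp, within its interval. With E-box windows of 100 bp to each side, 36.7% and 38.2% of tRNA peaks in 3xFLAG-Da held one, with 36.7% and 41.5% of the other peaks. The cause of these moves was not tested beyond what the settings themselves change. In the trimmed lists no tRNA peak was left in 3xFLAG-Da, so the fold rank could not be had.

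Leaving out each library in turn gave differences of 38 to 80 genes, −0.225 to −0.0643 points of the list, 15.2 to 21.7 percentile points of fold rank and 39 to 79 genes with 3xFLAG-Da peaks alone, the last without 3xFLAG-Da IP replicate 2. With the replicate number as a block, the differences were the same (59 genes, −0.145 points and 18.5 percentile points), with an exact sign-flip p of 0.5, the smallest that 2 pairs allow. Deviations of same-numbered libraries had a correlation of 0.017 over 225 regions present in all 4 lists. These are only regions also called in Control, so whether libraries of 1 number were prepared together is not settled by this. Depth limits the Control counts, as given beside the 28 loci.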
